A study of Mus musculus with 12 samples.

Results

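The response of the heart to 1 week of pressure overload was described in mice that ate no branched-chain amino acids. It rests on 6 of the 12 libraries of the study, chosen by their labels: 3 of BCAA-free TAC hearts and 3 of BCAA-free sham hearts. All genes with a mean of at least 10 normalised reads over these 6 libraries were tested, which were 15936 genes. The mice were male C57Bl/6J, 12 weeks of age, and RNA came from the heart with no chamber named. The BCAA-free diet held no leucine, isoleucine or valine and was supplemented with 1% propionate, and so was the BCAA-control diet of the other 6 libraries (control sham and control TAC), which held the 3 amino acids. Feeding began 4 days before surgery. Transverse aortic constriction (TAC) narrows the aortic arch and loads the left ventricle with pressure, while sham surgery leaves the aorta open. Hearts were taken 1 week later, on the same diet. Whether each of the 3 libraries in a group stems from its own mouse is not stated in the labels, and the p-values therefore describe variation among the libraries sequenced, part of which may be technical.

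Heart muscle under sudden pressure load enlarges its cells, switches on genes of the fetal heart such as those of natriuretic peptides, slow myosin and skeletal actin, and makes less of the machinery of calcium cycling and fat oxidation. Fibroblasts multiply or become matrix-secreting cells, and resident and recruited macrophages clear debris and signal to both. Branched-chain amino acids are broken down in mitochondria to acyl-CoA esters, and the breakdown of valine and isoleucine ends in propionyl-CoA, the compound that dietary propionate also feeds.

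In the 6 libraries 35929132 to 46097445 reads were assigned to the listed genes. Levels below are normalised reads, the reads of a gene divided by the size factor of its library, in the order of replicates 1, 2 and 3. They are not divided by gene length, so they compare libraries and not genes. Changes are differences of the mean log2(value + 4), TAC minus sham, given with their SE and n = 3 libraries per group, which understates the change of low genes. Adjusted p-values come from limma with Benjamini-Hochberg adjustment over all 15936 genes, and a gene is said to rise or fall where its adjusted p was under 0.05. The tissue label was checked against 8 cardiomyocyte markers, which held 3144250.1, 3085398 and 3272658 summed normalised reads in the sham libraries and 3169458, 3530203 and 3355203 in the TAC libraries. None of these 8 passed by limma or edgeR, and 1 rose and 1 fell by DESeq2, with 1 higher and 1 lower at an unadjusted p under 0.05. Actc1, the cardiac actin gene, was at 322979, 280008 and 310316 in sham and 461559, 360188 and 373492 in TAC (log2 change 0.38 ± 0.14, adjusted p = 0.158). In these bulk samples, fewer cells of a type and less RNA per cell cannot be told apart.

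The TAC libraries differed in how far they had moved. TAC replicate 1 was the highest of the 3 TAC libraries for 375 of the 469 genes that rose, against 45 for replicate 2 and 49 for replicate 3. The median log2 difference of these 469 genes from the sham mean was 1.01 in replicate 1, 0.69 in replicate 2 and 0.62 in replicate 3. For the 219 genes that fell it was -0.44, -0.46 and -0.37. Markers of adipocytes stood high in TAC replicate 2, with 4965, 16695 and 5185 summed normalised reads over 10 markers in the TAC libraries and 9446, 5964 and 5121 in the sham libraries. The 3 RNAs of polymerase III summed to 1016 normalised reads in sham replicate 1 and to 97.7 to 333 in the other 5 libraries. The part of either in the results was not tested.

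**Figure D1:**
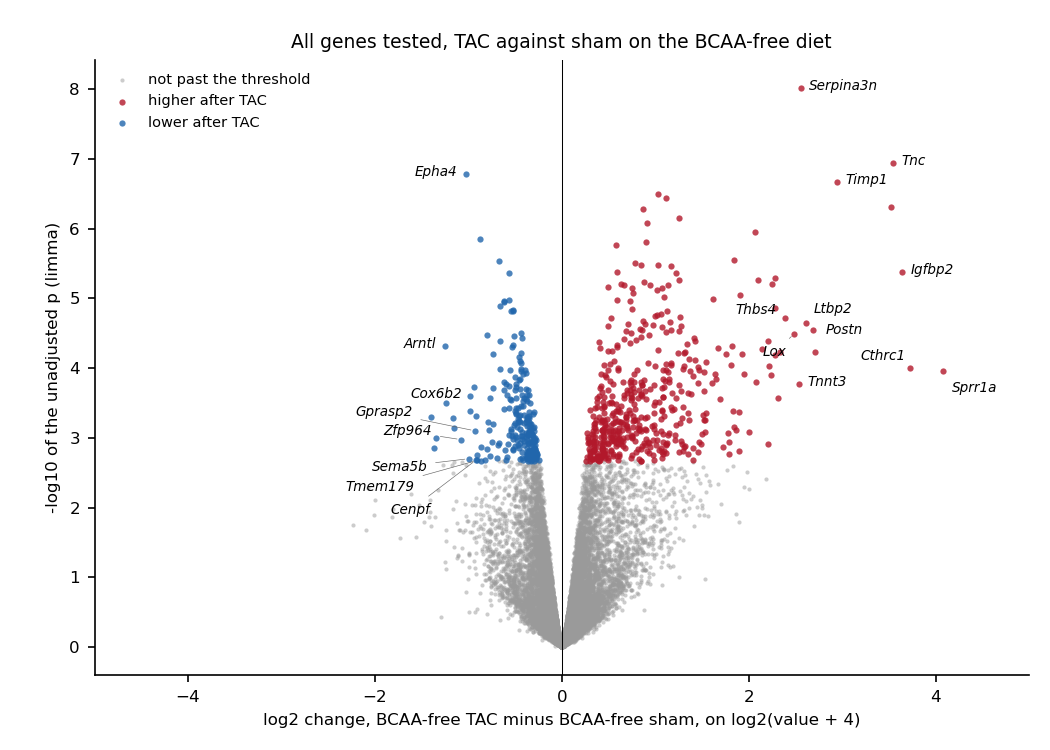
Each point is 1 of the 15936 genes tested, with the log2 change after TAC on the BCAA-free diet on the x axis and the negative log10 of the unadjusted limma p on the y axis. The 469 genes that rose are red and the 219 that fell are blue, and the labelled genes are those of the largest rises and falls that the text names. The rises reach further from 0 than the falls.

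After TAC, 688 genes passed the test, 4.32% of the 15936 tested. Of these 469 rose, 2.94% of all genes, and 219 fell, 1.37%. Counts of list members below stand beside these shares of all genes. The groups did not overlap for 4257 genes, 26.7%. At least 2-fold changes were seen for 163 of the rises and 9 of the falls. The median change over all genes tested was -0.0030. The largest rises were in genes of wound matrix, of growth factor binding and of epithelial and muscle stress, and the largest falls included a clock gene and an ephrin receptor. The count was 107, 105 and 119 with sham replicate 1, 2 or 3 left out, and 793, 387 and 1195 with TAC replicate 1, 2 or 3 left out. Of the 793 genes called without TAC replicate 1, 576 were among the 688. By edgeR on recovered reads 668 genes passed (4.19%), and by DESeq2 1159 (7.27%). When limma estimated the spread without a trend on the mean level, 0 passed, and 2846 had an unadjusted p under 0.05, against 3404 with the trend. The authors' deposited table gives an adjusted p under 0.05 for 1145 genes, 757 higher and 388 lower after TAC, and 683 of them are among the 688.

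Of the 12 largest rises, the highest was that of Sprr1a (ENSMUSG00000050359; GRCm38 chromosome 3, 92483952 to 92485895, minus strand), a small proline-rich protein of cornified cells that stressed cardiomyocytes also make. It was listed at 2.15, 10.6 and 6.36 normalised reads in the sham libraries and 582, 149 and 46.3 in the TAC libraries (log2 change 4.08 ± 0.69, adjusted p = 0.0119). Every TAC library exceeded every sham library, and TAC replicate 1 was far above the other two. Igfbp2 (ENSMUSG00000039323; chromosome 1, 72824503 to 72852474, plus strand), which binds insulin-like growth factors, rose from 3.22, 7.69 and 3.18 to 141, 46.3 and 158 (log2 change 3.64 ± 0.43, adjusted p = 0.00285). Here TAC replicates 1 and 3 were alike and replicate 2 was lower. The serine protease inhibitor gene Serpina3n (ENSMUSG00000021091; chromosome 12, 104406729 to 104414329, plus strand) had 326, 282 and 300.1 in sham and 2301, 1319 and 1918 in TAC (log2 change 2.56 ± 0.17, adjusted p = 0.000153), the smallest p of all genes tested. Tnnt3 (ENSMUSG00000061723; chromosome 7, 142498836 to 142516009, plus strand), the troponin T of fast skeletal muscle, had 38.7, 23.1 and 18.0 in sham and 366, 165 and 76.9 in TAC (log2 change 2.54 ± 0.46, adjusted p = 0.0149). Also among the 12, Cthrc1, Tnc, Timp1, Postn, Ltbp2, Lox and Thbs4 are matrix genes described with their groups. Igfbp2 and Serpina3n passed whichever library was left out. Sprr1a did not pass without any 1 sham library (adjusted p = 0.0544 to 0.0713). Tnnt3 did not pass without sham replicate 2 or 3 (adjusted p = 0.0805 to 0.0908).

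The falls were smaller. Among the 8 largest, Epha4 (ENSMUSG00000026235; chromosome 1, 77367185 to 77515088, minus strand), a receptor for ephrins on neighbouring cells, fell from 1904, 2126 and 1831 to 989, 1015 and 864 (log2 change -1.03 ± 0.088, adjusted p = 0.000857). Its 3 TAC libraries lay close together and well below the sham libraries. Efnb2, the gene of an ephrin ligand of arterial endothelium, fell too, from 956, 986 and 1012 to 738, 791 and 756 (log2 change -0.37 ± 0.076, adjusted p = 0.0261). In all, 2 of 31 ephrin and axon guidance genes fell and 0 rose, with a median of 0.050, where 1.37% of all genes fell. Sema5b, a semaphorin, was at 87.0, 65.4 and 62.6 in sham and 38, 40.1 and 24.8 in TAC (log2 change -0.99 ± 0.25, adjusted p = 0.0482). Cox6b2, a testis isoform of a subunit of cytochrome c oxidase, was at 154, 118 and 113 and 67.5, 63.7 and 57.0 (log2 change -0.98 ± 0.18, adjusted p = 0.0177). Zfp964 (a zinc finger gene), Gprasp2 (a sorting protein of receptors) and Tmem179 (a membrane protein) fell by 1.08 ± 0.24, 0.93 ± 0.20 and 0.90 ± 0.23 on the log2 scale. Arntl and Cenpf, the other two, are described with the clock and the cell cycle. Epha4 passed whichever library was left out. Efnb2, Cox6b2 and Tmem179 did not pass without any 1 sham library (adjusted p = 0.062 to 0.212). Sema5b did not pass without any 1 sham library or TAC replicate 2 or 3 (adjusted p = 0.0693 to 0.188). Zfp964 and Gprasp2 did not pass without any 1 sham library or TAC replicate 2 (adjusted p = 0.0689 to 0.154). Sema5b and Tmem179 did not pass with a pseudocount of 1, among genes with a mean of at least 50 or by edgeR (adjusted p = 0.0504 to 0.059). Tmem179 did not pass after quantile normalisation (adjusted p = 0.0563).

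**Figure D2:**
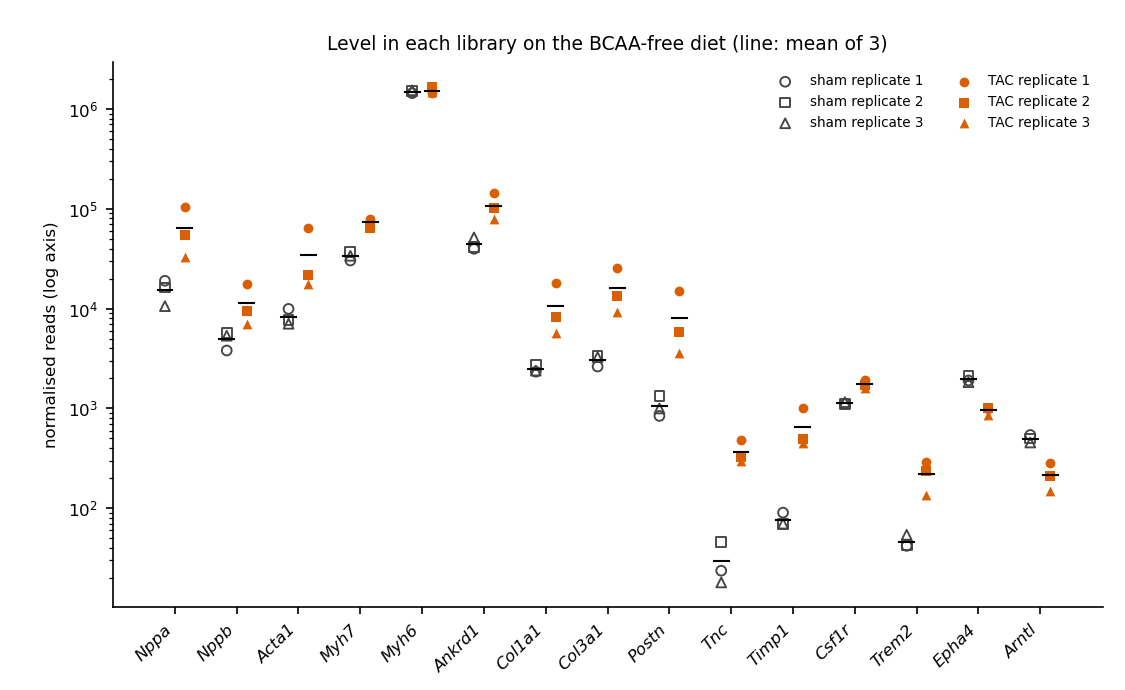
Normalised reads of 15 genes in each of the 6 libraries on a log axis, with sham libraries as open grey symbols, TAC libraries as filled orange symbols, 1 symbol shape per replicate number, and a line at the mean of 3. Myh6 lies between 1437631 and 1666216 in all 6 libraries, and the TAC libraries are above all sham libraries for Nppa, Acta1, Col3a1 and Tnc and below them for Epha4 and Arntl.

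Some stress genes of cardiomyocytes rose after TAC. The peptide hormone genes Nppa and Nppb rose about 3.85-fold and 2.17-fold, skeletal actin Acta1 3.56-fold and slow myosin Myh7 2.17-fold. Nppa, atrial natriuretic peptide, was at 18995, 16268 and 10575 in sham and 103851, 54492 and 33043 in TAC (log2 change 1.95 ± 0.33, adjusted p = 0.0125). Nppb, its ventricular relative, was at 3803, 5705 and 5345 and 17799, 9519.7 and 7017 (log2 change 1.12 ± 0.27, adjusted p = 0.0432). The groups did not overlap for either gene, and TAC replicate 1 was the highest for both. Of the 7 natriuretic peptide and receptor genes tested, Nppa and Nppb were the 2 that passed, and the median of the 7 was -0.0030. Summed levels of 10 atrial and conduction markers, which include Nppa, were 38980.1, 33371 and 21266 in sham and 123234, 83165 and 48795 in TAC, and 2 of the 10 passed, Nppa and Myl1. The atrial regulatory and essential light chain genes Myl7 and Myl4 and sarcolipin, Sln, named after their values were seen, did not pass, with changes of 0.36 ± 0.34, 0.61 ± 0.21 and 0.44 ± 0.31 and groups that overlapped. Other markers of this list went down: over the 10 the median was 0.23, the range -1.30 to 1.95, and 6 changes were above 0. How much atrial tissue each library held was not tested. Nppa did not pass without sham replicate 2 or 3 (adjusted p = 0.0707 to 0.0714). Nppb did not pass without any 1 sham library or TAC replicate 2 (adjusted p = 0.0841 to 0.172). Nppb did not pass among genes with a mean of at least 50, after quantile normalisation or by DESeq2 (adjusted p = 0.0502 to 0.0711).

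Among contractile isoforms, 4 of 16 rose and 0 fell, with a median of 0.22. The count was 1, 1 and 1 without sham replicates 1, 2 and 3 and 4, 3 and 5 without TAC replicates 1, 2 and 3. Myh7, the slow myosin heavy chain of the fetal ventricle, rose from 30314, 36653 and 33827 to 78590.4, 63992 and 76264 (log2 change 1.12 ± 0.10, adjusted p = 0.000957). The level of Myh6, the fast myosin heavy chain of the adult mouse ventricle, was 1441126, 1510052 and 1540163 in sham and 1437631, 1666216 and 1491447 in TAC (log2 change 0.031 ± 0.21, adjusted p = 0.957), so the groups overlapped. Acta1, the actin of skeletal muscle that the fetal heart also uses, rose from 9932, 7708 and 7044 to 64258, 21499.7 and 17687 (log2 change 1.83 ± 0.37, adjusted p = 0.0232). TAC replicate 1 held about 3 times the Acta1 level of the other two TAC libraries. Tnnc1, the calcium sensor of the thin filament, rose from 88288, 79695 and 85962 to 121973, 114722 and 120891 (log2 change 0.49 ± 0.091, adjusted p = 0.016), and Myl1, a myosin light chain of fast muscle, rose as well (log2 change 1.26 ± 0.27, adjusted p = 0.0273). Myh7 passed whichever library was left out. Acta1 and Tnnc1 did not pass without any 1 sham library (adjusted p = 0.0762 to 0.121). Myl1 did not pass without any 1 sham library or TAC replicate 2 (adjusted p = 0.06 to 0.144). Tnnc1 did not pass after quantile normalisation (adjusted p = 0.0563).

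Genes that answer to stretch and sit at the Z-disc or the sarcomere rose in 9 of 20 cases and fell in 0 (median 0.41, range -0.026 to 1.49). Leaving out libraries gave 1, 0 and 1 without sham replicates 1, 2 and 3 and 7, 8 and 9 without TAC replicates 1, 2 and 3. Ankrd1 (cardiac ankyrin repeat protein, a titin-bound stretch sensor) was at 39715, 41313 and 51673 in sham and 142474, 101923 and 78891 in TAC (log2 change 1.25 ± 0.18, adjusted p = 0.0063). Its relative Ankrd23 rose by 0.75 ± 0.14. Xirp2, which binds actin at the intercalated disc, rose from 12445, 13803 and 14016 to 43394, 20760.5 and 25465 (log2 change 1.08 ± 0.20, adjusted p = 0.0178). For Synpo2l, a Z-disc protein, the values were 5126, 5459 and 6202 and 11440.0, 8299 and 7816 (log2 change 0.70 ± 0.13, adjusted p = 0.016). Des, the intermediate filament that ties Z-discs together, rose from 80875, 82244 and 78938 to 172082, 126977 and 108657 (log2 change 0.73 ± 0.15, adjusted p = 0.0236). Ankrd1 did not pass without sham replicate 1 or 2 (adjusted p = 0.0506 to 0.0511). Ankrd23, Xirp2 and Synpo2l did not pass without any 1 sham library (adjusted p = 0.0542 to 0.111). Des did not pass without any 1 sham library or TAC replicate 2 (adjusted p = 0.0506 to 0.111). Des did not pass after quantile normalisation (adjusted p = 0.0672).

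The promoters of Acta1 and Ankrd1, which rose in these hearts, hold letters long known from muscle genes, and they are shown from RefSeq on GRCm38.p6, from 250 bases before to 50 bases after the start site, with the searched letters in capitals (in Acta1 the CArG box of serum response factor, the MCAT element of TEAD factors and the TATA box; in Ankrd1, read on the other strand as GGAATG, MCAT elements).
Acta1 promoter, chr8:123894726-123895025, minus strand: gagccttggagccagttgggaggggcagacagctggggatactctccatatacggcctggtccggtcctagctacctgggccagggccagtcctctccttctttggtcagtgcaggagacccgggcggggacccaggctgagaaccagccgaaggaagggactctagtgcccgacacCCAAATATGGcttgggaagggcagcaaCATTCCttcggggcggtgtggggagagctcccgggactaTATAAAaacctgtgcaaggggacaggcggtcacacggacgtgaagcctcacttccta
Ankrd1 promoter, chr19:36119795-36120094, minus strand: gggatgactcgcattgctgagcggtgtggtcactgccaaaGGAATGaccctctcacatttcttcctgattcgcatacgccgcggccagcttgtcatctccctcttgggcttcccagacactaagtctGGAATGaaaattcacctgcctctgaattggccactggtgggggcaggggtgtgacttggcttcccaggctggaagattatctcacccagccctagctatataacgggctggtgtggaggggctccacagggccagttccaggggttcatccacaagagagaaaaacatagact
In Acta1 the CArG box begins at position -73 from the start site as listed in RefSeq, and its letters are CCAAATATGG. The TATA box letters begin at -7 from the same listed start, and whether transcription begins there was not tested. Both strands were searched, and a match is a description of the letters and not of a bound site. Here and below, a gene of a list counts if any of its promoters matches, while the share of all promoters counts each promoter singly. Genes with several promoters thus have more places for a match. A CArG box was found in 4 of 16 contractile isoform genes that have a promoter in the table and in 3 of 16 mechanical stress genes, against 1.63% of all 32851 promoters. The MCAT element (CATTCC) was found in 9 of 16 and 5 of 16, against 14.7%, and the TATA box (TATAAA) stands in 13.6% of all promoters.

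Many of the genes that rose encode the extracellular matrix. Collagen genes of scar fibres, the enzymes that crosslink them and the matricellular proteins of wound healing all had members that rose by more than 2-fold. Among the fibrillar collagens, which form the cables that bear load, 5 of 7 rose (median 1.64). Col3a1, of the thin fibres of early scar, was at 2626, 3355 and 3263 in sham and 25694, 13227 and 9166 in TAC (log2 change 2.25 ± 0.28, adjusted p = 0.00313). Col1a1, of the thick stiff fibres, rose from 2331, 2725 and 2391 to 18137, 8151 and 5702 (log2 change 1.93 ± 0.31, adjusted p = 0.00889), and Col1a2, its partner chain, rose by 1.82 ± 0.28. Every TAC library exceeded every sham library for these 3 genes, and TAC replicate 1 was the highest. Col5a2, a chain of the collagen that starts fibre assembly, rose from 774, 909 and 839.8 to 4825, 2159 and 1737 (log2 change 1.64 ± 0.28, adjusted p = 0.0125). The number of fibrillar collagens that rose was 1, 2 and 1 without sham replicates 1, 2 and 3 and 5, 5 and 5 without TAC replicates 1, 2 and 3. Col3a1 passed whichever library was left out. Col1a1 and Col5a2 did not pass without any 1 sham library (adjusted p = 0.0544 to 0.0725). Col1a2 did not pass without sham replicate 1 or 3 (adjusted p = 0.0548 to 0.0549).

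Genes of collagens VI, VIII, XII, XIV, XV, XVI and XVIII rose in 8 of 11 cases (median 1.08), and that count was 1, 3 and 2 without sham replicates 1, 2 and 3 and 10, 7 and 10 without TAC replicates 1, 2 and 3. Col8a1, a short-chain collagen of vessel walls, rose most among the 4 named, from 421, 535 and 512 to 4678, 1446 and 1699 (log2 change 2.20 ± 0.33, adjusted p = 0.00742). Col18a1, the source of endostatin, was at 499, 742 and 628 and 1457, 1486 and 1159.7 (log2 change 1.14 ± 0.14, adjusted p = 0.00313), with the 3 TAC libraries close together. Col14a1, which sits on the surface of collagen fibres, and Col6a3, of the beaded filaments around cells, rose by 1.26 ± 0.23 and 1.08 ± 0.20. Of the 19 genes in the basement membrane list, which does not count Col18a1, 1 rose by limma, and 3 by DESeq2 (median 0.18). The gene that rose by limma was Sparc, a collagen-binding protein that is also matricellular, at 8104, 8440.2 and 8412 in sham and 33349, 17608 and 13954 in TAC (log2 change 1.28 ± 0.24, adjusted p = 0.0164). Col18a1 passed whichever library was left out. Col8a1 did not pass without sham replicate 1 (adjusted p = 0.0523). Col14a1 did not pass without sham replicate 1 or 3 (adjusted p = 0.0831 to 0.0832). Col6a3 and Sparc did not pass without any 1 sham library (adjusted p = 0.0768 to 0.0908).

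Of the genes that trim, fold and crosslink collagen, 8 of 21 rose and 0 fell (median 0.33). Lox (ENSMUSG00000024529; chromosome 18, 52516067 to 52529867, minus strand), the lysyl oxidase that makes collagen and elastin crosslinks, rose 5.62-fold, from 147, 232 and 164 to 2196, 723 and 660.4 (log2 change 2.49 ± 0.37, adjusted p = 0.00656). Its relative Loxl3 rose from 259.9, 272 and 243 to 1140.3, 607 and 479 (log2 change 1.41 ± 0.24, adjusted p = 0.013). Adamts2, the protease that removes the amino end of procollagen, had 689, 754 and 713 in sham and 2823, 1570.0 and 1374 in TAC (log2 change 1.34 ± 0.21, adjusted p = 0.00782). P4ha3, a subunit of prolyl hydroxylase, was at 3.22, 0.961 and 3.18 and 40.1, 23.6 and 18.2 (log2 change 2.24 ± 0.39, adjusted p = 0.0128), few reads in the sham libraries. With libraries left out the count was 1, 1 and 0 without sham replicates 1, 2 and 3 and 8, 8 and 13 without TAC replicates 1, 2 and 3. Lox did not pass without sham replicate 3 (adjusted p = 0.0502). Loxl3, Adamts2 and P4ha3 did not pass without any 1 sham library (adjusted p = 0.05 to 0.0735).

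Matricellular proteins signal from the matrix without bearing load, and 12 of 20 of their genes rose (median 1.04; 8, 9 and 8 without sham replicates 1, 2 and 3 and 13, 11 and 13 without TAC replicates 1, 2 and 3). Tnc, tenascin C of healing wounds (ENSMUSG00000028364; chromosome 4, 63959785 to 64047015, minus strand), rose 11.7-fold, from 23.6, 46.1 and 18.0 to 482, 325 and 298 (log2 change 3.54 ± 0.29, adjusted p = 0.000857). Postn (ENSMUSG00000027750; chromosome 3, 54361109 to 54391037, plus strand), periostin of activated fibroblasts, rose 6.47-fold, from 839.9, 1337 and 998 to 14971, 5762 and 3553 (log2 change 2.69 ± 0.39, adjusted p = 0.00626). TAC replicate 1 had more than 2 times the Postn level of the next library. Cthrc1 (ENSMUSG00000054196; chromosome 15, 39076932 to 39087121, plus strand), a secreted protein of fibroblasts that make new matrix, had 4.30, 13.5 and 4.24 in sham and 432, 120.3 and 47.1 in TAC (log2 change 3.73 ± 0.63, adjusted p = 0.0118). Thbs4 (ENSMUSG00000021702; chromosome 13, 92751590 to 92794818, minus strand), a thrombospondin of loaded muscle, had 235, 311 and 293 and 2966, 885 and 1220.0 (log2 change 2.39 ± 0.33, adjusted p = 0.00523). Cilp, a matrix protein that restrains TGF-beta, rose from 519.8, 690.1 and 661 to 5410.4, 2112 and 2405 (log2 change 2.28 ± 0.28, adjusted p = 0.00313). Spp1, osteopontin, rose by 2.28 ± 0.31, and Mgp, an inhibitor of calcification, rose by 0.95 ± 0.12 with levels of 4620.3, 4592 and 4602 in sham and 11145, 7488 and 8435 in TAC. Fn1, fibronectin, rose from 1660.4, 1961 and 1498 to 6594, 3558 and 3167 (log2 change 1.31 ± 0.22, adjusted p = 0.0115), and Ctgf, connective tissue growth factor, from 3507, 4327 and 3611 to 9509.6, 6654 and 4994 (log2 change 0.84 ± 0.18, adjusted p = 0.0304). Tnc, Postn, Thbs4, Cilp, Spp1 and Mgp passed whichever library was left out. Cthrc1 did not pass without sham replicate 1 or 3 (adjusted p = 0.0677 to 0.0696). Fn1 did not pass without any 1 sham library (adjusted p = 0.05 to 0.0687). Ctgf did not pass without any 1 sham library or TAC replicate 2 (adjusted p = 0.0744 to 0.128).

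Of the matrix proteases and their inhibitors 8 of 23 rose and 0 fell (median 0.31; 1, 2 and 2 without sham replicates 1, 2 and 3 and 8, 4 and 11 without TAC replicates 1, 2 and 3). Timp1 (ENSMUSG00000001131; chromosome X, 20870166 to 20874735, plus strand), an inhibitor of matrix metalloproteases, rose 7.68-fold, from 90.2, 69.2 and 70.0 to 1006, 499 and 451 (log2 change 2.94 ± 0.26, adjusted p = 0.000857). Mmp2, a gelatinase, was at 1277, 1469 and 1581 and 4983, 3072 and 2244 (log2 change 1.18 ± 0.22, adjusted p = 0.0171). Adam12, a membrane protease of activated mesenchyme, rose from low levels of 4.30, 8.65 and 8.48 to 88.6, 42.2 and 35.5 (log2 change 2.34 ± 0.37, adjusted p = 0.0088). Of the small proteoglycans, 4 of 14 rose (median 0.29; 1, 2 and 1 without sham replicates 1, 2 and 3 and 4, 3 and 5 without TAC replicates 1, 2 and 3), among them Bgn, biglycan, from 5432, 6419.8 and 5747 to 21075, 11651 and 10854 (log2 change 1.24 ± 0.20, adjusted p = 0.0088), and Vcan, versican, by 1.06 ± 0.15. Timp1 and Vcan passed whichever library was left out. Mmp2 did not pass without any 1 sham library (adjusted p = 0.0683 to 0.0923). Adam12 did not pass without sham replicate 1 (adjusted p = 0.0523). Bgn did not pass without sham replicate 1 or 3 (adjusted p = 0.0594 to 0.0597).

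Elastic fibres give vessels and the heart wall their recoil, and 9 of 18 of their genes rose while 1 fell (median 0.65; 2, 3 and 2 without sham replicates 1, 2 and 3 and 10, 6 and 11 without TAC replicates 1, 2 and 3 for the rises). The one that fell was Emilin2, a glycoprotein of elastic fibres that was named after its values were seen, from 1651, 1751 and 1774 to 1268, 1284 and 1464 (log2 change -0.37 ± 0.078, adjusted p = 0.0286). Ltbp2 (ENSMUSG00000002020; chromosome 12, 84783212 to 84876532, minus strand), a microfibril protein, rose 6.11-fold, from 206, 360.4 and 300.1 to 3718, 1298 and 1090.2 (log2 change 2.61 ± 0.37, adjusted p = 0.00582). Mfap5, another microfibril protein, had 555, 654 and 589.6 in sham and 3957, 2109.8 and 1914 in TAC (log2 change 2.07 ± 0.21, adjusted p = 0.00161). Eln, elastin itself, rose from 1808, 2541 and 2363 to 11933, 6019 and 4858 (log2 change 1.67 ± 0.26, adjusted p = 0.0083), and Mfap4 rose by 2.08 ± 0.37. Ltbp2 and Mfap5 passed whichever library was left out. Emilin2 did not pass without any 1 sham library or TAC replicate 2 (adjusted p = 0.0771 to 0.141). Eln did not pass without sham replicate 1 or 3 (adjusted p = 0.0517 to 0.0559). Mfap4 did not pass without any 1 sham library (adjusted p = 0.0633 to 0.0832).

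The cells that make this matrix were followed by their markers. Of the markers of activated fibroblasts, which overlap with the matrix genes already described, 9 of 16 rose (median 1.32; 6, 7 and 5 without sham replicates 1, 2 and 3 and 10, 8 and 13 without TAC replicates 1, 2 and 3), and their summed level was 11004, 13046 and 11898 in sham and 47489, 26388 and 18747 in TAC. Of the markers of fibroblasts in general, 6 of 14 rose (median 0.30; 2, 2 and 2 without sham replicates 1, 2 and 3 and 8, 4 and 6 without TAC replicates 1, 2 and 3), with sums of 83767, 84049 and 87000.3 and 106054, 105139 and 93691. Pi16, a marker of perivascular fibroblasts, rose from 1678, 1739 and 1631 to 5379.8, 3927 and 3089 (log2 change 1.26 ± 0.15, adjusted p = 0.00313), and the proteoglycan Lum, lumican, by 0.85 ± 0.16. Acta2, the smooth muscle actin of contractile myofibroblasts, was at 6610.4, 7072 and 6694 in sham and 9084, 10365 and 5889 in TAC (log2 change 0.27 ± 0.16, adjusted p = 0.358), with overlapping groups. Wisp2, a secreted protein of the connective tissue growth factor family, rose by 1.16 ± 0.16. Pi16 and Wisp2 passed whichever library was left out. Lum did not pass without any 1 sham library (adjusted p = 0.0576 to 0.0929). Acta2 passed without TAC replicate 3 (adjusted p = 0.00399).

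TGF-beta drives fibroblasts to make matrix. Of its ligands, receptors and modulators 4 of 30 rose and 1 fell (median 0.20; 1, 2 and 1 without sham replicates 1, 2 and 3 and 4, 4 and 8 without TAC replicates 1, 2 and 3 for the rises). None of the 3 ligand genes passed: Tgfb1 was at 912, 966 and 876 and 1363, 993 and 859.6 (log2 change 0.20 ± 0.14, adjusted p = 0.459), Tgfb2 at 346, 442 and 463 and 1031, 618 and 548 (log2 change 0.76 ± 0.20, adjusted p = 0.0622). Tgfb3 was at 589.6, 628 and 671 in sham and 1614, 982 and 787 in TAC (log2 change 0.77 ± 0.20, adjusted p = 0.0571). For Tgfb2 and Tgfb3 the groups did not overlap, and for Tgfb1 they did. Tgfbr2, the ligand-binding receptor, rose from 1741, 1839.7 and 1744 to 2519, 2069 and 2206 (log2 change 0.35 ± 0.081, adjusted p = 0.0393). Among modulators, Fstl3, an activin antagonist, rose from 81.6, 123 and 95.4 to 259, 193 and 206 (log2 change 1.11 ± 0.18, adjusted p = 0.0112), and Fstl1 from 2151, 2728 and 2549 to 12836, 5886 and 4686 (log2 change 1.52 ± 0.28, adjusted p = 0.0162). The gene that fell was Smad3, the signal transducer that carries the TGF-beta signal to the nucleus, named after its values were seen (log2 change -0.38 ± 0.090, adjusted p = 0.0423). Tgfb2 passed without TAC replicate 3 (adjusted p = 0.018). Tgfb3 passed without TAC replicate 1 or 3 (adjusted p = 0.00701 to 0.0244). Tgfbr2 did not pass without any 1 sham library or TAC replicate 1 (adjusted p = 0.0528 to 0.149). Fstl3 did not pass without sham replicate 1 or 3 (adjusted p = 0.0604 to 0.0614). Fstl1 did not pass without any 1 sham library (adjusted p = 0.0767 to 0.0902). Smad3 did not pass without any 1 sham library or TAC replicate 2 (adjusted p = 0.11 to 0.169).

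In the insulin-like growth factor system 5 of 12 genes rose and 0 fell (median 0.27; 2, 2 and 3 without sham replicates 1, 2 and 3 and 5, 5 and 5 without TAC replicates 1, 2 and 3). Igf1, the ligand, rose from 242, 299 and 391 to 1029.5, 578 and 552 (log2 change 1.17 ± 0.23, adjusted p = 0.0214). Besides Igfbp2, the binding protein genes Igfbp6 and Igfbp7 rose, Igfbp6 from 586, 552 and 584 to 892, 969 and 879 (log2 change 0.67 ± 0.083, adjusted p = 0.00313) with very little spread in either group. Igfbp7, made by vessel cells and fibroblasts, rose by 0.72 ± 0.14. Igfbp6 passed whichever library was left out. Igf1 did not pass without sham replicate 1 or 2 (adjusted p = 0.104 to 0.113). Igfbp7 did not pass without any 1 sham library (adjusted p = 0.0769 to 0.114).

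Many macrophage genes rose as well. Genes of complement, of the lysosome and of both resident and recruited macrophages were among them, such as Csf1r at 1.55-fold and Trem2 at 4.30-fold. Of the resident macrophage markers 10 of 18 rose (median 0.48; 4, 5 and 4 without sham replicates 1, 2 and 3 and 11, 8 and 9 without TAC replicates 1, 2 and 3), and their summed level was 17487, 18137 and 18165 in sham and 26310.4, 23639 and 24990.0 in TAC. Of the markers of recruited monocytes and macrophages 8 of 17 rose (median 0.80; 4, 3 and 4 without sham replicates 1, 2 and 3 and 8, 7 and 8 without TAC replicates 1, 2 and 3), with sums of 9419.9, 9917 and 9452 and 19292, 14869 and 14472. This list holds Fn1 and Spp1, already described with the matricellular proteins, and Lyz2 of myeloid cells in general. Their levels enter these sums, so the sums are not a measure of recruited monocytes alone. Csf1r, the receptor that macrophages need to live, rose from 1115, 1103 and 1155 to 1906, 1723 and 1618 (log2 change 0.63 ± 0.078, adjusted p = 0.00313). Timd4, a marker of self-renewing resident macrophages, was at 34.4, 55.7 and 38.2 and 51.7, 30.8 and 30.6 (log2 change -0.18 ± 0.28, adjusted p = 0.766), with overlapping groups. Ccr2, the chemokine receptor of blood monocytes, rose from 34.4, 39.4 and 48.8 to 149, 90.5 and 101 (log2 change 1.37 ± 0.23, adjusted p = 0.012). Lyz2, the lysozyme of myeloid cells, rose from 2850.3, 2964 and 3248 to 6126, 5373 and 5063 (log2 change 0.87 ± 0.083, adjusted p = 0.00103). Csf1r and Lyz2 passed whichever library was left out. Ccr2 did not pass without sham replicate 1 or 2 (adjusted p = 0.0696 to 0.0721).

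Phagosome and lysosome genes rose in 13 of 27 cases and fell in 0 (median 0.38; 4, 5 and 4 without sham replicates 1, 2 and 3 and 14, 10 and 17 without TAC replicates 1, 2 and 3). Trem2, a lipid receptor of macrophages that clear debris, rose 4.30-fold, from 41.9, 42.3 and 54.1 to 289, 235 and 136 (log2 change 2.10 ± 0.26, adjusted p = 0.00313), and its adaptor Tyrobp from 195, 184 and 187 to 524, 412 and 336 (log2 change 1.13 ± 0.15, adjusted p = 0.00456). Lgals3, galectin-3 of activated macrophages, had 122, 99.0 and 89.1 in sham and 498, 405 and 271 in TAC (log2 change 1.85 ± 0.21, adjusted p = 0.00273). Ctss, a lysosomal protease of antigen-presenting cells, rose from 319, 279 and 294 to 859, 669 and 636 (log2 change 1.26 ± 0.12, adjusted p = 0.00125). The 3 TAC libraries lay above all sham libraries for each of these genes. Cd68, a lysosomal membrane protein of macrophages, rose by 0.73 ± 0.13. Trem2, Tyrobp, Lgals3 and Ctss passed whichever library was left out. Cd68 did not pass without any 1 sham library (adjusted p = 0.0527 to 0.0806).

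Complement tags cells and debris for removal, and 10 of 19 of its genes rose (median 0.59; 5, 5 and 5 without sham replicates 1, 2 and 3 and 10, 7 and 11 without TAC replicates 1, 2 and 3). The 3 chains of C1q, which macrophages make, rose together: C1qa from 1033, 1319.7 and 1158 to 2938, 2117 and 2138 (log2 change 1.02 ± 0.13, adjusted p = 0.00325), C1qb by 1.17 ± 0.14 and C1qc by 0.90 ± 0.10. C4b, the next component of the classical pathway, rose from 911, 842 and 939.5 to 1741, 1688 and 2105 (log2 change 1.03 ± 0.094, adjusted p = 0.000957). Serping1, the inhibitor of C1, rose from 2859, 2761 and 2789 to 4524, 4241 and 3901 (log2 change 0.59 ± 0.070, adjusted p = 0.00285), with groups far apart relative to their spread. C1qa, C1qb, C1qc, C4b and Serping1 passed whichever library was left out.

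Of the chemokine and cytokine genes 6 of 28 rose and 0 fell (median 0.40; 0, 1 and 1 without sham replicates 1, 2 and 3 and 4, 2 and 8 without TAC replicates 1, 2 and 3). Ccl8, a chemokine for monocytes, had levels of 8.59, 13.5 and 6.36 and 68.6, 31.9 and 83.5 (log2 change 2.21 ± 0.37, adjusted p = 0.0115), and Ccl12, from the same gene cluster, of 0, 2.88 and 9.54 and 55.9, 21.6 and 19.8 (log2 change 2.20 ± 0.51, adjusted p = 0.0372), both low. Csf1, the ligand of Csf1r, rose from 1060.0, 1226 and 1286 to 1850.2, 1649 and 1490.3 (log2 change 0.48 ± 0.10, adjusted p = 0.0259). Il1b, Il6 and Tnf, the classic inflammatory cytokines, are not analysed here. MHC class II genes, which present antigen to helper T cells, rose in 3 of 9 cases (median 0.49; 0, 0 and 0 without sham replicates 1, 2 and 3 and 3, 2 and 4 without TAC replicates 1, 2 and 3), and in 5 by DESeq2. H2-Aa rose from 634, 656 and 783 to 1207, 953 and 932 (log2 change 0.57 ± 0.12, adjusted p = 0.0256), H2-Ab1 by 0.54 ± 0.12 and the invariant chain Cd74 by 0.49 ± 0.11. Ccl8 did not pass without sham replicate 1 or 3 (adjusted p = 0.0596 to 0.062). Ccl12 did not pass without any 1 sham library or TAC replicate 1 or 2 (adjusted p = 0.055 to 0.153). Csf1 and Cd74 did not pass without any 1 sham library or TAC replicate 2 (adjusted p = 0.0506 to 0.14). H2-Aa and H2-Ab1 did not pass without any 1 sham library (adjusted p = 0.0524 to 0.144). Ccl12 did not pass with a pseudocount of 1 or by edgeR (adjusted p = 0.0513 to 0.054).

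T and NK cell markers were low after TAC in 2 of the 3 TAC libraries. Their summed level over 17 markers was 855, 1074 and 1035 in sham and 1037, 132 and 224 in TAC, so TAC replicate 1 stood with the sham libraries and replicates 2 and 3 far below. The median of the 17 was -1.25 (-2.12 to -0.97 with 1 library left out), and 1 of 17 fell. That gene was Il7r, the interleukin-7 receptor, from 49.4, 48.1 and 61.5 to 23.2, 22.6 and 18.2 (log2 change -1.17 ± 0.24, adjusted p = 0.0256). The number that fell was 0, 0 and 0 without sham replicates 1, 2 and 3 and 13, 0 and 1 without TAC replicates 1, 2 and 3. None of the 11 B cell markers passed by limma, edgeR or DESeq2, with 0 higher and 0 lower at an unadjusted p under 0.05 (smallest p for Ighm, log2 change 0.28 ± 0.13, adjusted p = 0.241), and of 6 neutrophil markers 1 rose, Lcn2, which many stressed cells also make (log2 change 0.93 ± 0.15, adjusted p = 0.011). Il7r did not pass without any 1 sham library or TAC replicate 2 (adjusted p = 0.0521 to 0.116). Lcn2 did not pass without sham replicate 2 or 3 (adjusted p = 0.0606 to 0.0721).

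Of 55 interferon-stimulated genes 6 rose and 0 fell, and the median was 0.13 (rises: 2, 1 and 1 without sham replicates 1, 2 and 3 and 7, 4 and 6 without TAC replicates 1, 2 and 3). Ifit3, which blocks viral RNA, rose from 191, 198 and 206 to 403, 279.7 and 356 (log2 change 0.78 ± 0.14, adjusted p = 0.0164), and Ifi27l2a from 422, 328 and 422 to 939, 728 and 690.2 (log2 change 1.00 ± 0.14, adjusted p = 0.00507). Irf7, the interferon regulatory factor that amplifies the response, rose by 0.67 ± 0.12, and Ifitm3 by 0.46 ± 0.080. Of 20 MHC class I and antigen processing genes 1 rose, H2-T22 (log2 change 0.43 ± 0.089, adjusted p = 0.0265), where 2.94% of all genes rose. Ifi27l2a passed whichever library was left out. Ifit3, Irf7 and H2-T22 did not pass without any 1 sham library (adjusted p = 0.0685 to 0.139). Ifitm3 did not pass without sham replicate 2 or 3 (adjusted p = 0.0687 to 0.0835). Interferon acts through the interferon-stimulated response element, and the promoter of Ifit3 (RefSeq, GRCm38.p6) is shown with its matches in capitals (GAAA, any 2 bases, GAAA, here read on the other strand).
Ifit3 promoter, chr19:34583279-34583578, plus strand: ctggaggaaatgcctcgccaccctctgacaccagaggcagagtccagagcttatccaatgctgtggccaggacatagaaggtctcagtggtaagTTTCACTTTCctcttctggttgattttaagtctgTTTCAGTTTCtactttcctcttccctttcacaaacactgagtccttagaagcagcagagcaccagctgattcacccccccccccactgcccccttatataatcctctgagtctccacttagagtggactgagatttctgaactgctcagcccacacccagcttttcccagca
This element was found in 23 of 38 interferon-stimulated genes that have a promoter in the table, against 3.44% of all promoters.

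Of 14 endothelial markers 2 fell and 0 rose, where 1.37% of all genes fell, and 5 of the 14 fell by DESeq2 (median -0.15; falls: 0, 0 and 1 without sham replicates 1, 2 and 3 and 3, 1 and 3 without TAC replicates 1, 2 and 3), with sums of 82945, 79598 and 77571 in sham and 67137, 73421 and 77211 in TAC. Kdr, the main receptor of VEGF, fell from 8214, 8809 and 7198 to 6442, 6062 and 5703 (log2 change -0.41 ± 0.083, adjusted p = 0.0246), and Cdh5, the cadherin of endothelial junctions, from 7129, 6886 and 6465 to 5750.1, 5446 and 5417 (log2 change -0.30 ± 0.064, adjusted p = 0.0295). Pecam1, a pan-endothelial adhesion protein, was at 5906, 6079 and 5483 and 5642, 5279 and 5954 (log2 change -0.050 ± 0.070, adjusted p = 0.73). Prox1, a transcription factor of lymphatic endothelium that cardiomyocytes also express, fell from 2628, 2937 and 2646 to 1842, 1744 and 2092 (log2 change -0.53 ± 0.083, adjusted p = 0.00821). Of 32 genes of angiogenesis and apelin signalling 1 rose and 2 fell, where 2.94% of all genes rose and 1.37% fell. Fgf16, a growth factor gene of cardiomyocytes, fell from 889, 901 and 948 to 569.6, 626 and 529 (log2 change -0.67 ± 0.089, adjusted p = 0.00442), and the receptor gene Fgfr1 rose by 0.34 ± 0.075. Vegfa was at 13206, 12873 and 12807 and 12724, 11185 and 9714 (log2 change -0.22 ± 0.090, adjusted p = 0.195). Fgf16 passed whichever library was left out. Kdr did not pass without sham replicate 1 or 2 or TAC replicate 2 (adjusted p = 0.0609 to 0.129). Cdh5 and Fgfr1 did not pass without any 1 sham library or TAC replicate 2 (adjusted p = 0.0668 to 0.144). Prox1 did not pass without sham replicate 2 (adjusted p = 0.0608). Vegfa passed without TAC replicate 1 (adjusted p = 0.0281).

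Of 14 smooth muscle and pericyte markers 4 rose and 1 fell (rises: 0, 0 and 0 without sham replicates 1, 2 and 3 and 3, 0 and 5 without TAC replicates 1, 2 and 3). The list was mixed, with a median of 0.075 and 4 members higher and 6 lower at an unadjusted p under 0.05 by limma. Cnn1, the calponin of contractile smooth muscle, rose from 191, 309 and 300.1 to 808, 632 and 414 (log2 change 1.18 ± 0.23, adjusted p = 0.0225), and Tagln from 973, 1110.2 and 1066 to 1698, 1949 and 1281 (log2 change 0.63 ± 0.13, adjusted p = 0.0269). Des, in this list too, is far more abundant in heart muscle. The one that fell was Abcc9, the regulatory subunit of the ATP-sensitive potassium channel in pericytes and cardiomyocytes, from 10801, 11603 and 11019.6 to 6484, 8147 and 9293 (log2 change -0.50 ± 0.11, adjusted p = 0.0327). Cnn1, Tagln and Abcc9 did not pass without any 1 sham library or TAC replicate 2 (adjusted p = 0.0694 to 0.157).

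**Figure D3:**
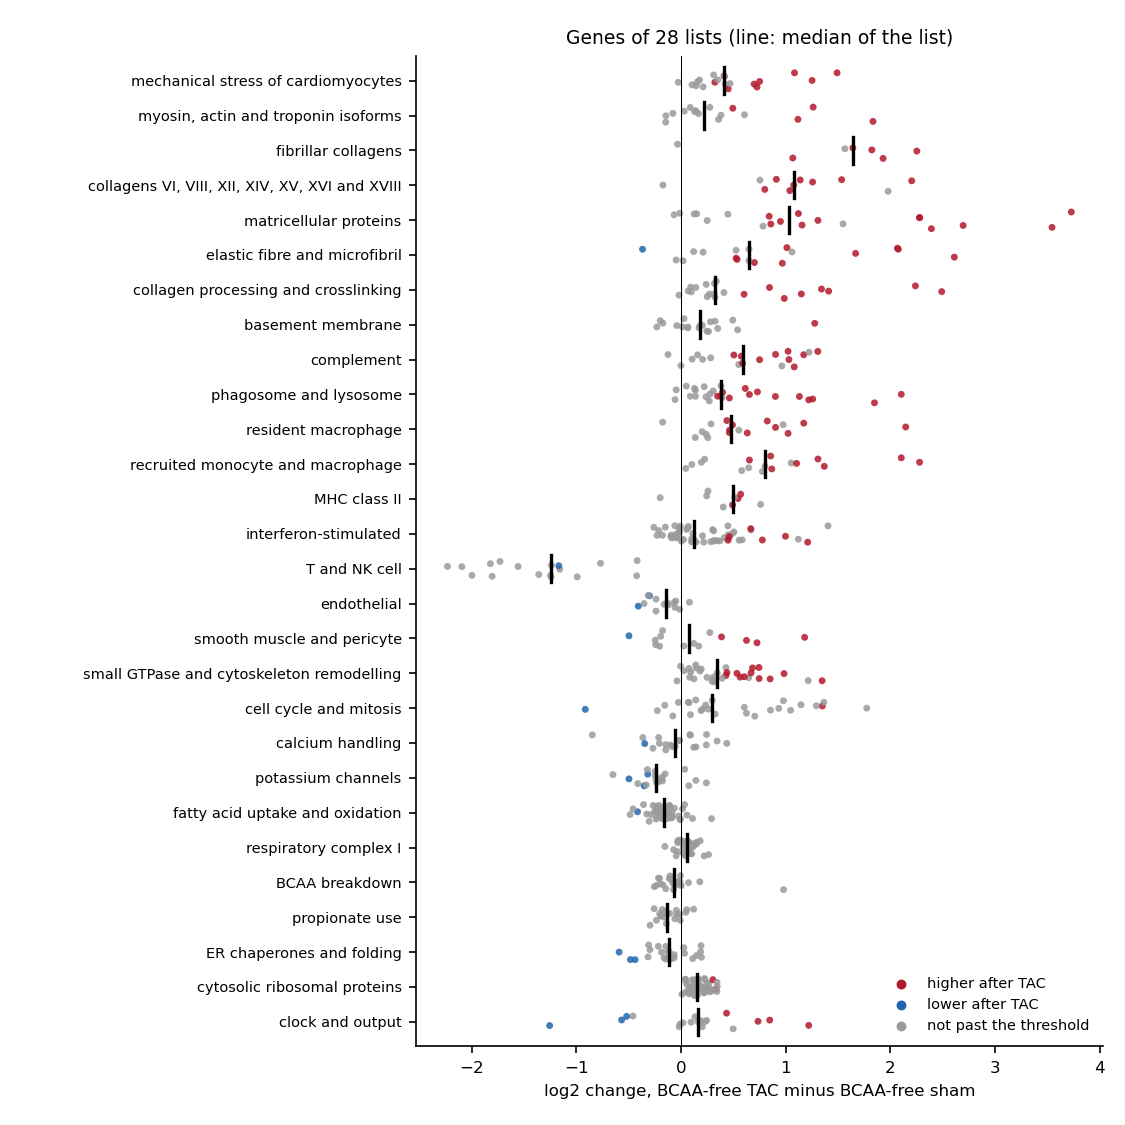
Log2 change after TAC on the BCAA-free diet for the tested genes of 28 lists, 1 point per gene, with a line at the median of each list and red or blue for genes that rose or fell. Matrix and macrophage lists lie to the right of 0, the T and NK cell list lies to the left with 1 gene past the threshold, and the mitochondrial, propionate and BCAA lists lie near 0.

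Of 27 cell cycle genes 1 rose and 1 fell, where 2.94% of all genes rose and 1.37% fell. The median was 0.30, and -0.025 over those with a mean of at least 50. By DESeq2 4 rose and 0 fell, and 9 were higher and 2 lower at an unadjusted p under 0.05 by limma. Ccna2, the cyclin of S phase and mitosis, rose from 15, 12.5 and 13.8 to 59.1, 24.7 and 47.1 (log2 change 1.35 ± 0.33, adjusted p = 0.0438). Mki67, the proliferation marker, was at 29.0, 53.8 and 38.2 in sham and 160.3, 53.5 and 55.4 in TAC (log2 change 0.93 ± 0.38, adjusted p = 0.193), so TAC replicate 1 was high and the other two stood at the level of the highest sham library. Cenpf, a kinetochore protein, fell from 909, 742 and 892 to 346, 358 and 716 (log2 change -0.91 ± 0.23, adjusted p = 0.049). None of 25 DNA replication genes passed by limma, edgeR or DESeq2, with 1 higher and 1 lower at an unadjusted p under 0.05 (smallest p for Uhrf1, which reads methylated DNA, 29.0, 14.4 and 23.3 and 58.0, 39.1 and 43.8, log2 change 0.98 ± 0.29, adjusted p = 0.0829). Of 13 CDK inhibitor and G1 cyclin genes 1 rose, the CDK inhibitor Cdkn2d (log2 change 0.41 ± 0.10, adjusted p = 0.048). Ccna2 and Cdkn2d did not pass without any 1 sham library or TAC replicate 1 or 3 (adjusted p = 0.0675 to 0.204). Cenpf did not pass without any 1 sham library or TAC replicate 1 or 2 (adjusted p = 0.0597 to 0.172). Ccna2, Cenpf and Cdkn2d did not pass after quantile normalisation (adjusted p = 0.0525 to 0.0567). Cenpf did not pass with a pseudocount of 1, among genes with a mean of at least 50, by edgeR or by DESeq2 (adjusted p = 0.0501 to 0.148).

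Genes that remodel the cytoskeleton rose in 12 of 33 cases and fell in 0 (median 0.35; 4, 3 and 4 without sham replicates 1, 2 and 3 and 12, 6 and 19 without TAC replicates 1, 2 and 3). Capg, which caps actin filaments in macrophages and other cells, rose from 444, 423 and 425 to 879, 719 and 751 (log2 change 0.85 ± 0.10, adjusted p = 0.00273). The annexin genes Anxa1 and Anxa2, of membrane repair, rose by 0.68 ± 0.10 and 0.74 ± 0.11. S100a10, the partner of annexin A2, rose from 860.3, 775 and 855 to 1539, 1231 and 1215 (log2 change 0.67 ± 0.10, adjusted p = 0.00724). Of 14 imprinted growth genes 1 rose, the non-coding RNA gene Meg3, from 881, 998 and 1029 to 2033, 1641 and 1281 (log2 change 0.74 ± 0.14, adjusted p = 0.0178). Capg, Anxa1 and Anxa2 passed whichever library was left out. S100a10 did not pass without sham replicate 2 (adjusted p = 0.0562). Meg3 did not pass without any 1 sham library or TAC replicate 2 (adjusted p = 0.0536 to 0.0959).

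In the 2 ion channel lists 5 genes passed by limma, and each was lower after TAC. Of the potassium channels, which repolarise the heartbeat, 3 of 20 fell, 5 by DESeq2, and 0 rose (median -0.24). They were Abcc9, Kcnj3, a subunit of the acetylcholine-gated channel, from 2400.3, 2239 and 2336 to 1742, 1919 and 1939 (log2 change -0.32 ± 0.070, adjusted p = 0.0327), and Kcnd2, of the transient outward current, from 1159.9, 1146 and 1268 to 1014, 861 and 927 (log2 change -0.35 ± 0.085, adjusted p = 0.0446). Of the sodium and calcium channels and connexins 2 of 21 fell and 0 rose, while 1 rose with no filter, after upper-quartile scaling, with the replicate block, by edgeR and without TAC replicate 1 or 3, and 2 rose and 3 fell by DESeq2 (median -0.11). Scn4a, the sodium channel of skeletal muscle, fell from 1808, 1562 and 1722 to 1052, 1089 and 1047 (log2 change -0.67 ± 0.076, adjusted p = 0.00273), and Scn4b, an auxiliary subunit, from 1569, 1819 and 1392 to 833, 944 and 1093 (log2 change -0.73 ± 0.12, adjusted p = 0.00889). The number that fell was 0, 0 and 0 without sham replicates 1, 2 and 3 and 3, 0 and 7 without TAC replicates 1, 2 and 3 for the potassium channels and 1, 1 and 2 without sham replicates 1, 2 and 3 and 3, 2 and 2 without TAC replicates 1, 2 and 3 for the other list. Scn4a passed whichever library was left out. Kcnj3 did not pass without any 1 sham library or TAC replicate 2 (adjusted p = 0.0575 to 0.14). Kcnd2 did not pass without any 1 sham library or TAC replicate 2 or 3 (adjusted p = 0.0539 to 0.178). Scn4b did not pass without sham replicate 1 or 2 (adjusted p = 0.0541 to 0.0608).

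Of 21 calcium handling genes 1 fell, 3 by DESeq2, and 0 rose (median -0.055). It was Itpr1, a calcium release channel of vessels and atria, from 1675, 1702 and 1569 to 1237, 1231 and 1427 (log2 change -0.35 ± 0.080, adjusted p = 0.0372). Atp2a2, the pump that refills the sarcoplasmic reticulum, was at 585010.1, 597185 and 594869 in sham and 424610.4, 453194 and 506377 in TAC (log2 change -0.36 ± 0.15, adjusted p = 0.186), with groups that did not overlap. Pln, the brake on that pump, was at 188208, 191894 and 216713 and 153235, 164018 and 178230.3 (log2 change -0.27 ± 0.11, adjusted p = 0.205), and the release channel gene Ryr2 at 53034, 50261 and 51058 and 53837, 46992 and 64285 (log2 change 0.086 ± 0.11, adjusted p = 0.702). Among angiotensin, endothelin and adrenergic genes 1 of 20 rose and 2 fell. Ace, the enzyme that makes angiotensin II, rose from 1798, 1836 and 1836 to 4633, 2917 and 2784 (log2 change 0.88 ± 0.15, adjusted p = 0.014), while Adra1b, an alpha-adrenergic receptor, fell by 0.49 ± 0.11 and Rgs2, a brake on receptor signalling, fell from 2735, 2527 and 2107 to 1093, 1437 and 1943 (log2 change -0.75 ± 0.17, adjusted p = 0.036). Itpr1 did not pass without any 1 sham library or TAC replicate 1 or 2 (adjusted p = 0.05 to 0.175). Ace did not pass without any 1 sham library (adjusted p = 0.0699 to 0.0812). Adra1b and Rgs2 did not pass without any 1 sham library or TAC replicate 2 (adjusted p = 0.0831 to 0.164). Atp2a2 passed by edgeR (adjusted p = 0.0412). Atp2a2 and Pln passed by DESeq2 (adjusted p = 0.000641 to 0.0326). Rgs2 did not pass by DESeq2 (adjusted p = 0.0755).

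Genes of energy metabolism were tested with 3 libraries per group, where 2.94% of all genes rose and 1.37% fell. Of 44 genes of fatty acid uptake and oxidation, the main fuel of the adult heart, 1 fell and 0 rose, while 6 fell after quantile normalisation and 6 by DESeq2 (median -0.16, range -0.49 to 0.29; falls: 0, 0 and 0 without sham replicates 1, 2 and 3 and 1, 1 and 8 without TAC replicates 1, 2 and 3). At an unadjusted p under 0.05 by limma, 1 of the 44 was higher and 12 were lower. The gene that fell by limma was Esrrg, a nuclear receptor that drives mitochondrial genes, from 1616, 1693 and 1608 to 1241, 1161 and 1284 (log2 change -0.42 ± 0.071, adjusted p = 0.0125). Cpt1b, the gate for fatty acids into muscle mitochondria, was at 6191, 6069 and 6405 and 4967, 5651 and 5450.3 (log2 change -0.22 ± 0.068, adjusted p = 0.0958), and Cd36, the fatty acid transporter, at 47694, 49587 and 49974 and 40380.1, 38795 and 46418 (log2 change -0.23 ± 0.086, adjusted p = 0.15). Both had groups that did not overlap and did not pass the test. Pdk4, the kinase that turns off pyruvate oxidation, ranged widely, with 22472, 20768 and 15265 in sham and 11075, 14931 and 22886 in TAC (log2 change -0.30 ± 0.22, adjusted p = 0.465). For the regulators Ppara and Ppargc1a the changes were -0.27 ± 0.10 (adjusted p = 0.171) and -0.18 ± 0.091 (adjusted p = 0.279). Of 33 glucose use genes 1 rose, and 4 by DESeq2. By limma it was Pgam2, the phosphoglycerate mutase of muscle, from 17846, 16901 and 17353 to 21033, 22041 and 20513 (log2 change 0.29 ± 0.066, adjusted p = 0.036). Esrrg did not pass without any 1 sham library (adjusted p = 0.0633 to 0.0864). Cd36 and Ppargc1a passed without TAC replicate 3 (adjusted p = 0.0382 to 0.049). Pgam2 did not pass without any 1 sham library or TAC replicate 2 (adjusted p = 0.0878 to 0.164).

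None passed of 26 TCA cycle genes (median -0.019), 37 genes of respiratory complex I (median 0.060), 37 of complexes III to V (median 0.074), 13 mitochondrially encoded genes (median -0.10) and 9 of ketone and lactate use (median -0.0052). The smallest p in each belonged to Suclg2 (log2 change -0.20 ± 0.074, adjusted p = 0.144), Ndufa11 (log2 change 0.26 ± 0.093, adjusted p = 0.134), Cox6a1 (log2 change 0.29 ± 0.075, adjusted p = 0.0531), mt-Atp8 (log2 change -0.48 ± 0.17, adjusted p = 0.129) and Slc16a3, a lactate exporter (log2 change 0.79 ± 0.20, adjusted p = 0.0501). By edgeR none passed, and by DESeq2 0 of the TCA cycle and complex I genes, 2 higher of complexes III to V, 1 lower of the mitochondrially encoded genes and 1 higher and 1 lower of ketone and lactate use. At an unadjusted p under 0.05 there were 0 higher and 1 lower for the TCA cycle, 2 higher and 0 lower for complex I, 3 higher and 0 lower for complexes III to V, 0 higher and 1 lower for mitochondrially encoded genes and 2 higher and 2 lower for ketone and lactate use. Cox6a1 passed without TAC replicate 1 (adjusted p = 0.0445). Slc16a3 passed without TAC replicate 3 (adjusted p = 0.0242). Cox6a1 and Slc16a3 passed by DESeq2 (adjusted p = 0.00567 to 0.0216). Slc16a3 passed after upper-quartile scaling (adjusted p = 0.0486).

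The genes of the diet's own pathways did not pass either. Of 23 genes of BCAA breakdown none passed by limma or edgeR, and 1 higher and 3 lower had an unadjusted p under 0.05 (median -0.072, range -0.26 to 0.98), and by DESeq2 1 rose and 0 fell. Bcat2, the mitochondrial transaminase of the first step, was at 4394, 4080.2 and 4471 in sham and 4020.1, 4439 and 4515 in TAC (log2 change 0.0025 ± 0.070, adjusted p = 0.991). Bckdha, a subunit of the dehydrogenase that commits the keto acids to breakdown, was at 5452, 5279 and 5995 and 4018, 5880.0 and 4292 (log2 change -0.26 ± 0.12, adjusted p = 0.259). TAC replicates 1 and 3 lay below all sham libraries and replicate 2 did not. Bckdk, the kinase that inhibits this dehydrogenase, was at 3567, 3369.9 and 3439 and 3189.9, 3683 and 3453 (log2 change -0.0090 ± 0.070, adjusted p = 0.964). Bcat1, the cytosolic transaminase, had the smallest p of the list, at 24.7, 21.1 and 33.9 and 53.8, 63.7 and 49.6 (log2 change 0.98 ± 0.25, adjusted p = 0.051), with groups that did not overlap. Bckdha passed without TAC replicate 2 (adjusted p = 0.0291). Bcat1 passed with a pseudocount of 16 or by DESeq2 (adjusted p = 0.0411 to 0.0462).

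Of 20 genes that carry propionate to succinyl-CoA or activate short-chain acids none passed by limma or edgeR, and 0 higher and 3 lower had an unadjusted p under 0.05 (median -0.14, range -0.30 to 0.12; 0 rose and 0 fell by DESeq2). Pcca and Pccb, the subunits of propionyl-CoA carboxylase, were at 3154, 3298 and 3386 and 5554, 6143 and 6159.8 in sham and 2735, 3051 and 3020.2 and 5120.3, 6531 and 5563 in TAC. Their changes were -0.16 ± 0.068 (adjusted p = 0.207) and -0.059 ± 0.090 (adjusted p = 0.756). Mut, the mutase of the last step, was at 3826, 3980.3 and 4145 and 3370.3, 3205 and 3587 (log2 change -0.23 ± 0.068, adjusted p = 0.0776), and its groups did not overlap. Mut passed without TAC replicate 3 (adjusted p = 0.0422).

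Amino acid supply and protein synthesis were read from transporters, ATF4 targets, chaperones and ribosomal proteins. Of 21 amino acid transporters 1 rose and 1 fell: Slc1a4, for alanine, serine and cysteine, from 75.2, 74.0 and 63.6 to 149, 118 and 119.9 (log2 change 0.82 ± 0.17, adjusted p = 0.0282), and Slc7a1, for lysine and arginine, from 1988, 1683 and 1581 to 1307, 1349 and 1369 (log2 change -0.38 ± 0.088, adjusted p = 0.0395). ATF4 is the transcription factor of the response to amino acid shortage, and of 34 of its targets 3 rose and 1 fell (median 0.14; 1, 1 and 2 without sham replicates 1, 2 and 3 and 4, 2 and 6 without TAC replicates 1, 2 and 3 for the rises). Eif4ebp1, a repressor of translation, rose from 2667, 2556 and 2754 to 3865, 3996 and 4083 (log2 change 0.58 ± 0.063, adjusted p = 0.00195), Nupr1 from 144, 152 and 197 to 723, 497 and 298 (log2 change 1.52 ± 0.26, adjusted p = 0.012) and Ddit3, the stress factor CHOP, by 0.43 ± 0.085. Vldlr, a lipoprotein receptor, fell by 0.43 ± 0.073. Atf4 itself was at 2657, 2461 and 2362 and 2877, 2784 and 2582 (log2 change 0.14 ± 0.072, adjusted p = 0.294), and Asns, asparagine synthetase, at 58.0, 65.4 and 71.0 and 88.6, 92.5 and 87.6 (log2 change 0.45 ± 0.18, adjusted p = 0.178). The stress hormone gene Gdf15 spread from above to below the sham range, with 48.3, 44.2 and 42.4 in sham and 164, 82.3 and 31.4 in TAC (log2 change 0.71 ± 0.44, adjusted p = 0.384). Fgf21 is not analysed here. Eif4ebp1 passed whichever library was left out. Slc1a4 did not pass without any 1 sham library or TAC replicate 1 or 2 (adjusted p = 0.0531 to 0.111). Slc7a1 and Ddit3 did not pass without any 1 sham library or TAC replicate 2 (adjusted p = 0.0514 to 0.147). Nupr1 did not pass without sham replicate 1 or 2 (adjusted p = 0.0719 to 0.0801). Vldlr did not pass without any 1 sham library (adjusted p = 0.0559 to 0.0791). Gdf15 passed without TAC replicate 3 (adjusted p = 0.0221).

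Chaperones of the endoplasmic reticulum fell in 3 of 25 cases, in 6 by DESeq2, and rose in 0 (median -0.12; 2, 0 and 0 without sham replicates 1, 2 and 3 and 3, 1 and 6 without TAC replicates 1, 2 and 3). Hspa5, the main chaperone BiP, fell from 18817, 23206 and 20499.6 to 12837, 12646 and 16122 (log2 change -0.59 ± 0.11, adjusted p = 0.0149), Hyou1 from 1809, 2255 and 2082 to 1540.1, 1521 and 1453 (log2 change -0.44 ± 0.086, adjusted p = 0.0208) and Manf, a secreted folding factor, by 0.48 ± 0.10. Of 20 cytosolic chaperones 2 rose, the small heat shock proteins Hspb1 (log2 change 0.45 ± 0.088, adjusted p = 0.0211) and Hspb6 (log2 change 0.42 ± 0.10, adjusted p = 0.047), and 1 fell, Hsph1 (log2 change -0.33 ± 0.076, adjusted p = 0.036). Of 55 ribosomal proteins 2 rose, Rpl3 (log2 change 0.33 ± 0.068, adjusted p = 0.0249) and Rps12 (log2 change 0.30 ± 0.075, adjusted p = 0.047), with a median of 0.15 and 55 of 55 changes above 0, 53 after quantile normalisation. By DESeq2 11 of them rose, and by limma the number was 0, 0 and 0 without sham replicates 1, 2 and 3 and 8, 1 and 2 without TAC replicates 1, 2 and 3. The share that rose by limma is near that of all genes, 2.94%. At an unadjusted p under 0.05 by limma, 25 of the 55 were higher and 0 lower. Over all 15936 genes, 3404 had such a p in either direction. Of 23 genes of atrophy, proteasome and autophagy 1 rose, Sqstm1, the autophagy receptor p62, from 16032, 15392 and 15619 to 20845, 21379 and 20210.0 (log2 change 0.41 ± 0.064, adjusted p = 0.00829). Hspa5 and Hspb1 did not pass without sham replicate 2 or 3 (adjusted p = 0.0733 to 0.121). Hyou1 did not pass without sham replicate 2 or 3 or TAC replicate 2 (adjusted p = 0.0506 to 0.115). Manf, Hsph1 and Rps12 did not pass without any 1 sham library or TAC replicate 2 (adjusted p = 0.0719 to 0.192). Hspb6, Rpl3 and Sqstm1 did not pass without any 1 sham library (adjusted p = 0.0523 to 0.193). Hspb6 and Rps12 did not pass after quantile normalisation (adjusted p = 0.0521 to 0.0716). Rps12 did not pass by edgeR (adjusted p = 0.0598).

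Of 27 genes of NRF2 and oxidative stress 5 rose and 0 fell (median 0.094; 3, 4 and 3 without sham replicates 1, 2 and 3 and 6, 4 and 7 without TAC replicates 1, 2 and 3). Hmox1, which breaks down heme, rose from 243, 228 and 206 to 489, 412 and 493 (log2 change 1.03 ± 0.12, adjusted p = 0.00273), and Gpx1, a peroxidase, from 2122, 1911 and 1999.9 to 3634, 3519 and 2755 (log2 change 0.71 ± 0.10, adjusted p = 0.00582). Cybb, the oxidase of phagocytes, rose by 0.86 ± 0.15 beside the macrophage markers. Mt2, a metallothionein that glucocorticoids also induce, rose from 1278, 810.3 and 883 to 1995, 2109 and 3095 (log2 change 1.27 ± 0.18, adjusted p = 0.00597), with replicate 3 the highest. Of 14 genes of the glucocorticoid and fasting response 4 rose and 0 fell, among them Fkbp5, a chaperone of the glucocorticoid receptor, from 993, 949 and 1112 to 1355, 1776 and 2038 (log2 change 0.74 ± 0.13, adjusted p = 0.0141), and Zbtb16, a transcriptional repressor, by 0.66 ± 0.15. The number that rose in this list was 2, 2 and 1 without sham replicates 1, 2 and 3 and 7, 3 and 4 without TAC replicates 1, 2 and 3. Hmox1, Gpx1 and Mt2 passed whichever library was left out. Cybb and Fkbp5 did not pass without any 1 sham library (adjusted p = 0.0518 to 0.0908). Zbtb16 did not pass without sham replicate 1 or 3 or TAC replicate 2 (adjusted p = 0.104 to 0.151).

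Among 19 clock and output genes 4 rose and 3 fell (1, 1 and 1 without sham replicates 1, 2 and 3 and 9, 1 and 4 without TAC replicates 1, 2 and 3 for the rises and 1, 1 and 2 without sham replicates 1, 2 and 3 and 3, 2 and 3 without TAC replicates 1, 2 and 3 for the falls). The clock turns by a loop in which ARNTL and CLOCK switch on their own repressors. Arntl (ENSMUSG00000055116; chromosome 7, 113207465 to 113314126, plus strand), which encodes BMAL1, fell from 541, 499.8 and 455 to 281, 212 and 147 (log2 change -1.25 ± 0.19, adjusted p = 0.00802), and each TAC library was below each sham library. Ciart, a repressor of that pair, rose from 296, 327 and 318 to 568, 818 and 856 (log2 change 1.22 ± 0.14, adjusted p = 0.00285), and Per3, a period gene, from 773, 933 and 985 to 1194, 1614 and 1711 (log2 change 0.74 ± 0.13, adjusted p = 0.016). Nr1d1, the receptor REV-ERB-alpha that represses Arntl, fell from 5802, 6792 and 6054 to 4327, 4368 and 4287 (log2 change -0.52 ± 0.071, adjusted p = 0.00456). In TAC replicate 1 Arntl was highest and Ciart and Per3 were lowest of the 3 TAC libraries. The labels used here give no hour of collection. Ciart and Nr1d1 passed whichever library was left out. Arntl did not pass without sham replicate 1 or 2 (adjusted p = 0.0561 to 0.0582). Per3 did not pass without any 1 sham library or TAC replicate 2 (adjusted p = 0.0548 to 0.086). The promoters of Ciart, which rose, and Arntl, which fell, are shown (RefSeq, GRCm38.p6) with the E-box CACGTG, through which ARNTL and CLOCK act, and the core of the ROR element TAGGTCA, through which REV-ERB-alpha acts, in capitals. Arntl has 2 starts in the table, and the second is shown. The window of the first holds neither the E-box nor the ROR core.
Ciart promoter, chr3:95882179-95882478, minus strand: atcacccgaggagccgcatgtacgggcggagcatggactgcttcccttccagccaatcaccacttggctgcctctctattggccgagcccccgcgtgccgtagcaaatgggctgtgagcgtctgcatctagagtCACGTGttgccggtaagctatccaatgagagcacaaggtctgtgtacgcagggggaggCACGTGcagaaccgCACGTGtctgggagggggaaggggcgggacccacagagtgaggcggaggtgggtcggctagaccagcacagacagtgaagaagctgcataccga
Arntl promoter, chr7:113207261-113207560, plus strand: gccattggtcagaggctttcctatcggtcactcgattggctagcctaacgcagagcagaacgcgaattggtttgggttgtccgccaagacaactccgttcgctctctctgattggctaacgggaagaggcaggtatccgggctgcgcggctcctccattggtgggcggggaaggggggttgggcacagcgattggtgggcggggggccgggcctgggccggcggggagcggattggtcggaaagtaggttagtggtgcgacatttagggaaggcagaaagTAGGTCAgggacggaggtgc
An E-box was found in 5 of 16 clock genes with a promoter in the table, against 7.15% of all promoters, and the ROR core in 2 of 16, against 2.61%. In the Arntl window the core begins 30 bases after the start site.

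Immediate early genes, which answer to stimuli within minutes, rose in 4 of 24 cases, 8 by DESeq2, and fell in 1 (median 0.22; 2, 1 and 2 without sham replicates 1, 2 and 3 and 4, 2 and 6 without TAC replicates 1, 2 and 3 for the rises). Ier5 rose from 764, 889 and 765 to 1627, 1563 and 1381 (log2 change 0.92 ± 0.092, adjusted p = 0.00134), Ier3 by 0.83 ± 0.12 and Btg2 by 0.42 ± 0.094. The one that fell was Klf2, a transcription factor that blood flow maintains in endothelium, from 4181, 3538 and 3352 to 2270.1, 2679 and 2585 (log2 change -0.55 ± 0.094, adjusted p = 0.0118). Ier5 passed whichever library was left out. Ier3 did not pass without sham replicate 2 (adjusted p = 0.05). Btg2 did not pass without any 1 sham library or TAC replicate 2 (adjusted p = 0.0527 to 0.145). Klf2 did not pass without sham replicate 1 or 2 (adjusted p = 0.0608 to 0.0615).

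Markers of other cells were at these levels. Red blood cell markers summed to 20363, 21229 and 17354 normalised reads in sham and 10549, 23681 and 29667 in TAC, and none of the 6 passed. Of 7 epicardial and mesothelial markers 1 rose, Aldh1a2, which makes retinoic acid (log2 change 1.32 ± 0.31, adjusted p = 0.0387), and their sums were 329, 438 and 332 and 658, 879 and 403. None passed by limma among adipocyte, mast and dendritic cell, platelet, liver, lung, thymus and Schwann cell markers, and 4 of 12 liver, 1 of 6 lung and 2 of 6 thymus markers were tested. The smallest p in these lists belonged to Cfd of fat (419, 346 and 249 in sham and 553, 1532 and 321 in TAC, log2 change 0.96 ± 0.43, adjusted p = 0.226), Cd209a of dendritic cells (log2 change 1.45 ± 0.40, adjusted p = 0.0663), Pf4 of platelets and macrophages (log2 change 0.29 ± 0.12, adjusted p = 0.186) and Trf, transferrin (log2 change 0.38 ± 0.10, adjusted p = 0.0625). For Ager of lung, Themis of thymocytes and T cells, Dbh of sympathetic nerves and Hba-a2 of red blood cells the changes were 0.23 ± 0.27, -1.53 ± 0.48, 0.33 ± 0.23 and 0.13 ± 0.29. Aldh1a2 did not pass without any 1 sham library or TAC replicate 2 (adjusted p = 0.0832 to 0.18).

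Last, the response was set against that of the control diet, by the difference of the log2 changes over the 12 libraries of both diets. The comparisons share no library, and each change was taken within 1 table, since the tables were normalised separately. Of 15498 genes tested on both diets, 7 passed (limma), 0.0452%, and 1565 had an unadjusted p under 0.05. The number was 5 by edgeR and 108 by DESeq2, and 2 to 15 with 1 of the 12 libraries left out. In the control diet 2 TAC libraries stood apart. Control TAC replicate 3 held 10767 summed normalised reads of 12 liver markers against 389 to 1049 in the other 5 libraries of that diet. Control TAC replicate 2 held 4320.1 of 3 RNAs of polymerase III against 53.1 to 299 in the other 5 libraries of that diet, and BCAA-free sham replicate 1 held 1016. Without both, which leaves 1 library in the control TAC group and takes its spread from the other groups, 1 gene passed, and it was none of the 7. The part of these RNAs in the differences was not tested.

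Igfbp6, an insulin-like growth factor binding protein, was the 1 gene with a higher response on the BCAA-free diet. On the control diet it was at 538, 616 and 518 in sham and 523, 489.5 and 519 in TAC (log2 change -0.12 ± 0.095, adjusted p = 0.495), and the difference was 0.79 ± 0.12, adjusted p = 0.0404. The other 6 had a lower response on the BCAA-free diet, and such a difference can lie in the sham hearts, the TAC hearts or both. Klf2 fell on the BCAA-free diet, while on the control diet it was at 1384, 1664 and 1759 in sham and 2486, 2658 and 2452 in TAC (log2 change 0.67 ± 0.092, adjusted p = 0.0075), a difference of -1.22 ± 0.14, adjusted p = 0.00403. Lmnb1 (ENSMUSG00000024590; chromosome 18, 56707813 to 56753424, plus strand), lamin B1 of the nuclear envelope, was at 202, 202 and 211 and 225, 223 and 216 on the BCAA-free diet (log2 change 0.11 ± 0.12, adjusted p = 0.644). On the control diet it was at 235, 218 and 206 and 565, 564 and 522 (log2 change 1.31 ± 0.10, adjusted p = 0.000531), and the difference was -1.20 ± 0.14, adjusted p = 0.00403. Stmn1, stathmin, which takes microtubules apart in dividing cells, was at 368, 324 and 308 and 401, 366 and 336 on the BCAA-free diet and at 304, 393 and 330.3 and 904, 788 and 714 on the control diet (difference -1.08 ± 0.17, adjusted p = 0.0434). Srsf2, a splicing factor, was at 4370.0, 4459.9 and 4500.3 and 3419, 3205 and 3610.4 and at 3242, 3044 and 3284 and 4129.9, 3552 and 3741 (difference -0.64 ± 0.094, adjusted p = 0.0404). Gm25262, a predicted miRNA gene, and Cdc7, a kinase that starts DNA replication, have means under 50 and were named after their values were seen. Gm25262 was at 30.1, 33.6 and 29.7 and 10.5, 10.3 and 7.44 on the BCAA-free diet and at 7.30, 4.54 and 4.21 and 13.5, 15.5 and 21.3 on the control diet (difference -2.54 ± 0.40, adjusted p = 0.0434). Cdc7 was at 44.0, 31.7 and 41.4 and 22.2, 30.8 and 25.6 and at 30.4, 36.3 and 27.3 and 102, 106 and 74.6 (difference -1.97 ± 0.31, adjusted p = 0.0434). The sham levels of Klf2, Srsf2 and Gm25262 were all higher on the BCAA-free diet than on the control diet, and those of Lmnb1, Stmn1 and Cdc7 overlapped. For Klf2 the TAC levels of the diets overlapped. Levels were normalised separately per diet, and a difference between diets in sham was not tested. Klf2 and Lmnb1 passed with each of the 12 libraries left out in turn (adjusted p = 0.00515 to 0.0241 for both genes), Srsf2 with 4 left out, Igfbp6, Stmn1 and Gm25262 with 2 each and Cdc7 with 0 (adjusted p up to 0.169). Without both control TAC replicates 2 and 3, the differences were -1.19 for Klf2, -1.24 for Lmnb1, -0.76 for Srsf2, -1.26 for Stmn1, 0.75 for Igfbp6, -2.31 for Gm25262 and -2.10 for Cdc7, close in size to those with all libraries, and their adjusted p lay between 0.065 and 0.225 with that group down to 1 library.

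**Figure D4:**
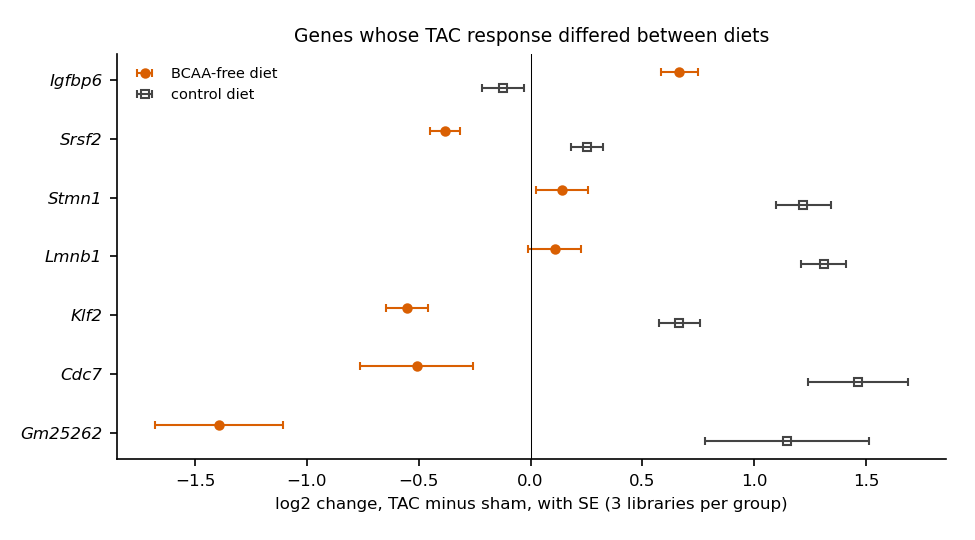
Log2 change after TAC with its SE on the BCAA-free diet (filled orange circles) and on the control diet (open grey squares) for the 7 genes whose responses differed between diets, 3 libraries per group. Igfbp6 lies higher on the BCAA-free diet, and the other 6 lie lower on it, with Klf2 below 0 on the BCAA-free diet and above 0 on the control diet.

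The leading genes of the BCAA-free response were not among the 7, and a p that missed the threshold does not show that the responses were alike. The differences, BCAA-free minus control, in the log2 changes were 0.63 ± 0.56, adjusted p = 0.775 for Nppa, -0.77 ± 0.46, adjusted p = 0.614 for Acta1, 0.40 ± 0.50, adjusted p = 0.854 for Col1a1, 0.43 ± 0.59, adjusted p = 0.87 for Postn and 0.41 ± 0.75, adjusted p = 0.908 for Tnc. Those of macrophage genes were 0.48 ± 0.15, adjusted p = 0.278 for Csf1r, 1.10 ± 0.25, adjusted p = 0.162 for Tyrobp and 0.71 ± 0.19, adjusted p = 0.216 for Lyz2. That of the MHC class II gene H2-Aa was 1.18 ± 0.20, adjusted p = 0.08. The lists of these genes had smaller medians. Their median differences were 0.32 for resident macrophages, 0.13 for recruited monocytes and macrophages, 0.13 for phagosome and lysosome and 0.61 for MHC class II. Mki67 and Ccna2 differed by -1.83 ± 0.65, adjusted p = 0.338 and -1.07 ± 0.40, adjusted p = 0.361. Over the cell cycle genes tested on both diets the median difference was -1.28, with 0 genes past the threshold in either direction, against -0.00071 over all genes tested. Most genes of this list were low: 9 of 27 had a mean of at least 50 over the BCAA-free libraries. Over the DNA replication genes tested on both diets the median difference was -0.74, with 0 higher and 0 lower. The list medians of the difference were taken with all 12 libraries only, so control TAC replicates 2 and 3 enter them.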

How the data were processed

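RNA was extracted with Trizol and poly(A) RNA was sequenced, per the labels. The submitters' processing notes list Trimmomatic 0.36, STAR 2.5.2b, Subread 1.5.2, DESeq2 and the builds GRCm38 and mm10, with no role for each. The authors deposited 4 tables of comparisons, of which the 2 sham and TAC tables were used and those between diets were not. Per the file headers each holds a normalised signal per library, a log2 fold change, and raw and adjusted p-values. The deposited signal values are reads divided by a size factor: whole reads were recovered for all values at a tolerance of 0.001. From these values, log2(value + 4) was tested in limma 3.58.1 (R 4.3.3) with an intensity trend and Benjamini-Hochberg adjustment, with a minimum mean of 10 per gene, and the difference between diets over genes with that mean in both tables. A listed mean never lay under 9.62 in the main table. The deposited log2 fold changes and p-values serve only for the authors' counts. Alternatives were pseudocounts of 1 and 16, other filters and scalings, edgeR 4.0.16 and DESeq2 1.42.0 on recovered reads, a replicate block and leaving out libraries. Named genes were the 12 largest rises and 8 largest falls that passed with a mean of at least 50, no predicted gene and groups apart, up to 4 members of each list with the smallest p, a list of stress, matrix, immune and metabolic genes, and genes that differed between diets, and some genes that this rule selects are not reported here. The members and the 70 gene lists were chosen with earlier results of these data known. The reads of replicates differed by more than counting noise, so none was counted as a repeat deposit of another, which does not show that they came from separate mice. Coordinates are from GENCODE M21 on GRCm38 for 15906 of the 15936 genes tested. The figures were drawn with matplotlib 3.10.9 and tables made with pandas 2.3.3.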

Additional observations from a re-analysis of the deposited data

Results flagged for a closer look

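The response to TAC differed between the diets for 7 genes by the test of the difference itself (limma, adjusted p under 0.05, 3 libraries per group and diet). The difference in log2 change, BCAA-free minus control, was 0.79 for Igfbp6, -1.22 for Klf2, -0.64 for Srsf2, -2.54 for Gm25262, -1.97 for Cdc7, -1.08 for Stmn1 and -1.20 for Lmnb1. Klf2 was lower in 3 of 3 TAC libraries than in any sham library on the BCAA-free diet and higher in 3 of 3 on the control diet. With 1 of the 12 libraries left out in turn, Klf2 and Lmnb1 passed each time, and the other 5 genes in 0 to 4 cases. With a pseudocount of 1, 4 of 15498 genes passed, and with the replicate block 0. No group of these comparisons has the 4 samples that a check of single samples would need.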

How the results depend on the processing

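The 688 genes that passed (469 higher and 219 lower) were 0 (0 and 0) without an intensity trend and 1159 (758 and 401) by DESeq2. With 1 library left out the count ranged from 105 to 1195 (88 to 715 higher and 17 to 480 lower). With pseudocounts of 1 and 16, no filter, a mean of at least 50, quantile normalisation, upper-quartile scaling and edgeR it lay between 653 and 709. Quantile normalisation gave 412 higher and 251 lower. Whether replicate numbers pair the samples is not stated in the labels used here. Same-numbered sham and TAC libraries had correlations of -0.088, -0.050 and 0.027 in their deviations from the group means, and not every library correlated best with its own number. With 3 libraries per group, these values cannot show that the numbers carry no pairing. With the replicate block 525 genes passed, 406 higher and 119 lower. For the difference between diets, the 7 genes were 4 with a pseudocount of 1, 108 by DESeq2, 0 with the replicate block, 1 without both control TAC replicates 2 and 3, and 2 to 15 with 1 library left out. Among named genes, the log2 change of Bcat2 changed sign to -0.011 after quantile normalisation and -0.0012 after upper-quartile scaling. With 1 library left out, the change ranged from -0.18 to 0.56 for Hba-a2, from -0.031 to 0.075 for Myh6, from -0.032 to 0.19 for Ryr2, from -0.40 to 0.015 for Timd4, from -0.059 to 0.045 for Bckdk, from -0.037 to 0.054 for Bcat2 and from -0.16 to 0.020 for Pccb. Of these 7 genes only Hba-a2 passed in any of these settings, without TAC replicate 1 (adjusted p = 0.0281). The cause of each shift was not tested. Dropping a library leaves a group of 2. Reads set the limit for low genes: those under a mean of 10 were not tested.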
